A study of Mus musculus with 27 samples.

Results

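Early neural genes were followed across the mouse pluripotent states of this study as a set of 10 genes, Sox1, Sox3, Sox11, Sox21, Pou3f2, Nes, Zfp521, Shh, Tubb3 and Ncam1, out of 23604 genes in the expression table. The rule that finds them uses their symbols alone, and each of the 10 had a row. RNA-seq covered 19 libraries, and ChIP-seq of H3K4me3 and H3K27me3 and bisulfite sequencing were made of formative pluripotent stem cells (fPSCs) at passage 10. Single fPSCs of 4 clones were sequenced as well.

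All cells were labelled wild type and grown in N2B27 medium, although some lines named below carry reporters. Mouse embryonic stem cells (mESCs, 2 libraries) were kept on gelatin without feeders, with PD035901, Chir99021 and LIF. EpiLCs (2 libraries) received KSR, Activin A and bFgf2, and Epiblastoids (1 library each on days 2, 3 and 4) were grown in the same additions inside Matrigel. EpiSCs (2 libraries) received KSR, Activin A, bFGF2 and the Wnt pathway inhibitor XAV939, on a layer of mitomycin-treated embryonic fibroblasts. The fPSCs received Activin A, bFgf2 and XAV939 and were mixed into Matrigel at passage according to the methods, with 1 library at passage 1 and 7 after long-term culture. Of these 7, 3 (passages 10, 20 and 30) were made with a total RNA-seq protocol like all groups above, and 4 (lines CMT at passage 11, 46C at 24, BVSC at 14 and ROSAmTmG at 12) with the NEBNext Ultra kit. The paper describes the CMT cells of passage 11 as cryopreserved. Against the total RNA-seq libraries, which share its line, the NEBNext library of CMT therefore differs in protocol and cryopreservation together. Those of 46C, BVSC and ROSAmTmG differ from them in protocol and line together. The separate parts of protocol, line and cryopreservation were not tested. According to the methods 4 of the 7 come from the line CMT, so they are not 7 independent derivations, and the other 3 are reporter lines: 46C carries Sox1-GFP, BVSC reporters of Blimp1 and Stella, and ROSAmTmG a fluorescent membrane reporter. Single libraries came from fPSCs derived from E5.5 and E6.5 epiblasts, at passage 10. Labels do not say whether replicates came from separate cultures, so p-values measure the spread between these libraries only.

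Sox1 and Sox3 are SoxB1 transcription factors, which with Sox2 mark the neural plate and hold cells in a progenitor state. Sox21 is a SoxB2 factor that counteracts them, Sox11 is a SoxC factor that promotes neuronal genes, and Pou3f2 (Brn2) is a POU factor of neural progenitors. Zfp521 is a zinc-finger factor needed for the entry of stem cells into the neural fate, Shh is the Hedgehog ligand secreted by notochord and floor plate, and Nes, Tubb3 and Ncam1 encode the intermediate filament nestin, a neuronal beta-tubulin and a neural cell adhesion molecule.

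Per library the FPKM added up to 307394 to 414727, with 10034 to 10933 genes at or above 1 FPKM. Read depth is unknown, since FPKM alone were deposited. The 6 naive markers (such as Zfp42 and Esrrb) were lower in EpiLCs, EpiSCs and fPSCs than in mESCs in 6 of 6 cases each by limma (Tfcp2l1 and Nr5a2 reached 1 FPKM in mESCs alone of the tested groups, and 4 of 4 were lower without them). The EpiSC libraries also held RNA of fibroblast genes: 12 markers summed to 718 and 868 FPKM there and to 4.39 to 23.8 FPKM in the other 17 libraries, with 10 of the 12 at 1 FPKM or more in each EpiSC library and none at 0. Fewer cells of a type and less RNA per cell cannot be told apart in such bulk samples. The part of fibroblast RNA in the EpiSC values below was not tested. In the Epiblastoids of day 4 and in the line 46C, 7 endoderm markers summed to 466 and 367 FPKM, against at most 217 FPKM elsewhere. Over the 7 long-term fPSC libraries the endoderm sum ran from 9.53 to 367 FPKM, against 2.13 and 0.689 FPKM in mESCs, and that of 7 streak and mesoderm markers from 28.3 to 167 FPKM, against 19.2 and 16.3 FPKM. Neural crest markers summed to 20.8 and 20.1 FPKM in EpiSCs and to at most 4.58 FPKM in the other libraries. Ets1 (17.9 and 16 FPKM) and Snai2 (2.62 and 3.68 FPKM) made up most of the EpiSC sums. Sox10, Pax3 and Tfap2a did not exceed 0.357 FPKM there, and Tfap2a was higher in mESCs, at 3.72 and 4.46 FPKM. Neuron markers summed to 60.6 and 62.1 FPKM in EpiSCs against at most 39.2 FPKM elsewhere. Stmn2 alone was at 57.9 and 59.9 FPKM in EpiSCs, while Dcx, Rbfox3, Elavl3 and Syp each had their highest value outside EpiSCs.

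The promoters of 4 of the genes are shown because they stand for the promoter types found below. Averaged over 10 kb, Sox1 and Shh held both histone marks, with little methylation, and Sox11 held H3K4me3 alone. Tubb3 had more methylation. Each stretch is 200 bases of the NCBIM37 (mm9) assembly that end just before the annotated start of transcription (for Sox11 and Tubb3 the more upstream of the GENCODE and RefSeq starts), read 5′ to 3′ on the gene's strand, with every CG dinucleotide in capitals. Sox1 lies on the plus strand and its stretch is chr8:12395319-12395518. Sox11 lies on the minus strand (chr12:28027584-28027783), as does Shh (chr5:28793642-28793841), and Tubb3 lies on the plus strand (chr8:125935124-125935323).
Sox1: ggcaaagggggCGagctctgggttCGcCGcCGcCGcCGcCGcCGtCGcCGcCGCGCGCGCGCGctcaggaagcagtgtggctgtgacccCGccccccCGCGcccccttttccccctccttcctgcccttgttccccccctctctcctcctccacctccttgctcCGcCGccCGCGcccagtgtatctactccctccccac
Sox11: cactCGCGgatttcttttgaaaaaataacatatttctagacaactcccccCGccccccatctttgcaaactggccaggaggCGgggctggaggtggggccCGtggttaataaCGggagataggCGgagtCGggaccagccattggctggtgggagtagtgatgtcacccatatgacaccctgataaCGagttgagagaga
Shh: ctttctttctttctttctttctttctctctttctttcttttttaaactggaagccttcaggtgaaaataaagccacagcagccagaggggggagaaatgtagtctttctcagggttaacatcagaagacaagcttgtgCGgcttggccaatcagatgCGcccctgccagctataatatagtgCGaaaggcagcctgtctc
Tubb3: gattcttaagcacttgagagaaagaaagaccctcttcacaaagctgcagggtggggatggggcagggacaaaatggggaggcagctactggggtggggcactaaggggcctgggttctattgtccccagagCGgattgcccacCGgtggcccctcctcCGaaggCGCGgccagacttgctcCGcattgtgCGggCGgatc

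The stretch of Sox1 held 23 CG, that of Sox11 9, that of Tubb3 8 and that of Shh 3, where the median over 22073 promoters was 7 and 90.3% of them held at least 1 (a CG reads the same on either strand). Shh thus had the sparsest of the 4 and Sox1 the densest.

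In outline, these genes did not move as a block between the pluripotent states. Sox3 and Sox11 were low in mESCs and high in each later state. Sox1, Shh, Nes, Zfp521 and Tubb3 were highest in EpiSCs. Sox21 was found in mESCs and EpiSCs and was low in EpiLCs and fPSCs. Tubb3 was also lowest in the long-term fPSCs among the 4 tested groups, and Pou3f2 and Ncam1 were low throughout. Groups were compared with limma on log2(FPKM + 1), a scale that understates changes of low genes, over 12513 genes that reached 1 FPKM in 2 or more of the 13 libraries of mESCs, EpiLCs, EpiSCs and long-term fPSCs. Calls needed a fold of 1.5 or more beside an adjusted p (Benjamini-Hochberg) below 0.05, and 8 of the 10 genes were tested. Pou3f2 and Ncam1 did not pass the filter.

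**Figure D1:**
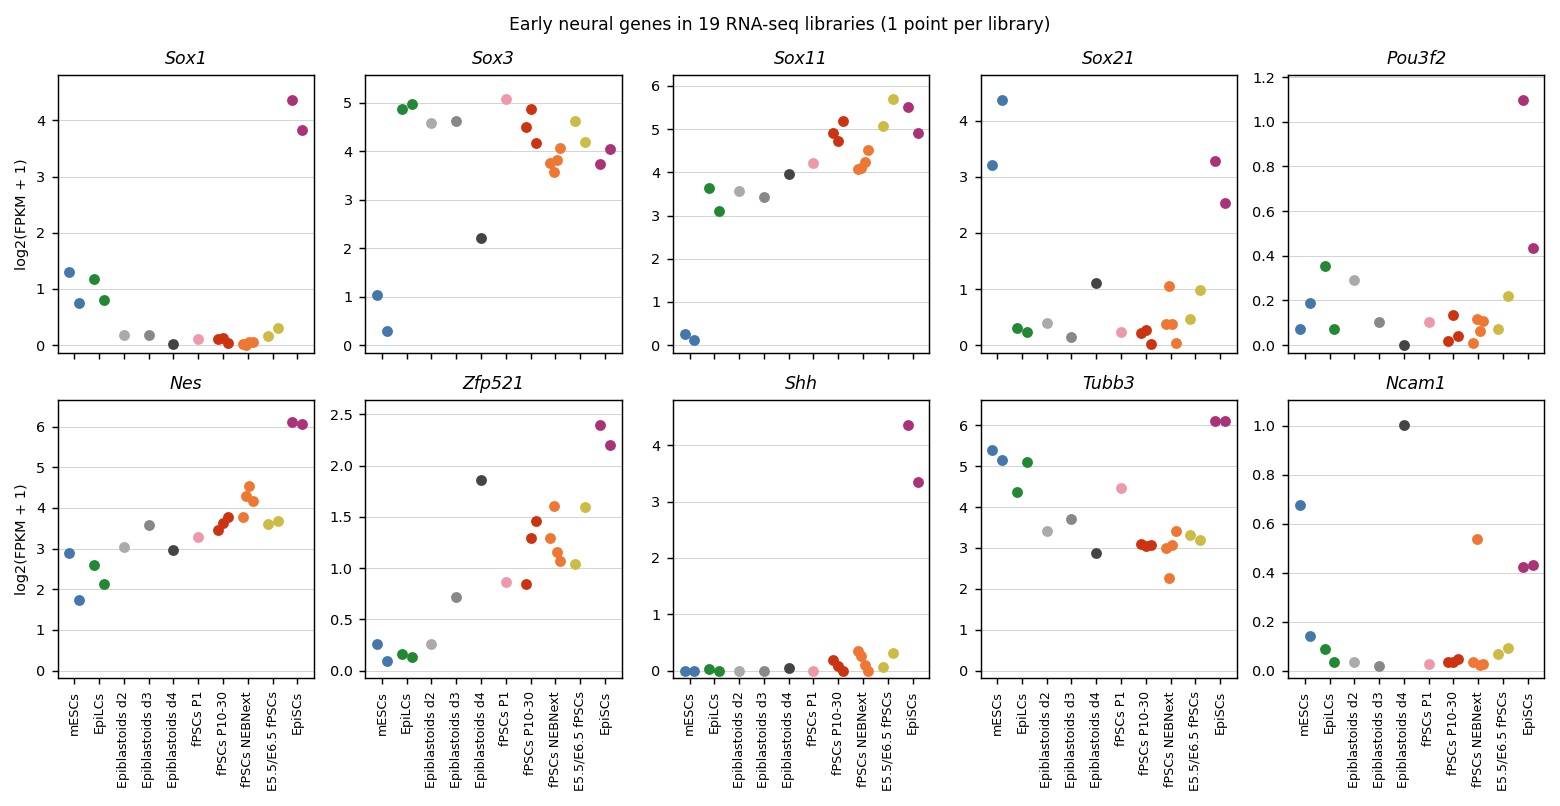
Level of each of the 10 genes as log2(FPKM + 1) on the vertical axis (scaled per gene), with 1 point per library in 10 groups of the 19 libraries on the horizontal axis. Sox1 and Shh stand high in the 2 EpiSC libraries alone, and Sox3 and Sox11 are lowest in the 2 mESC libraries.

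Among the SoxB1 genes, Sox1 was at 1.48 and 0.686 FPKM in mESCs, at 1.26 and 0.735 FPKM in EpiLCs and at 19.6 and 13.2 FPKM in EpiSCs. In the 7 long-term fPSC libraries Sox1 ran from 0 (listed at 0 in 46C) over a median of 0.0343 to 0.0974 FPKM. The groups did not overlap except mESCs and EpiLCs, with EpiSCs on top and fPSCs at the bottom. By limma, Sox1 was higher in EpiSCs than in fPSCs by 4.04 ± 0.17 on the log2 scale (SE, adjusted p = 1.34e-09) and fell by 0.97 ± 0.17 from mESCs to fPSCs (adjusted p = 0.0004), while EpiLCs and mESCs differed by -0.05 (95% interval -0.50 to 0.41, adjusted p = 0.901). The difference of fPSCs from EpiLCs (-0.93 ± 0.17, adjusted p = 0.00214) was lost when the EpiLC library with replicate number 1 was left out (adjusted p = 0.0653). The Sox1 start, placed here by a match of its RefSeq promoter, lies inside the annotated gene Gm5607 on the same strand. Reads of Sox1 and of Gm5607 may therefore be hard to tell apart.

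Sox3 followed another course. It was at 1.03 and 0.22 FPKM in mESCs, 28.1 and 30.2 FPKM in EpiLCs and 12.4 and 15.5 FPKM in EpiSCs. In long-term fPSCs it ran from 10.9 over 15.7 to 28.1 FPKM. The mESC libraries lay below all others, and the fPSCs overlapped EpiLCs and EpiSCs. Sox3 rose by 4.26 ± 0.38 from mESCs to EpiLCs (limma, adjusted p = 2.97e-06), by 3.45 ± 0.31 to fPSCs (adjusted p = 1.2e-06) and by 3.24 ± 0.38 to EpiSCs (adjusted p = 1.71e-05). Between the later states no difference passed: EpiSCs minus EpiLCs was -1.02 (95% interval -1.85 to -0.19, adjusted p = 0.0531), fPSCs minus EpiLCs was -0.80 (adjusted p = 0.102) and EpiSCs minus fPSCs was -0.21 (95% interval -0.88 to 0.45, adjusted p = 0.616). The first of these was called under 4 other settings, with adjusted p = 0.0297 with the replicate block, 0.0221 in that fit without the block, 0.0442 with upper-quartile scaling and 0.00877 with these groups alone (limma). The 3 libraries of passages 10 to 30 held 17 to 28.1 FPKM and the 4 of the NEBNext kit 10.9 to 15.7 FPKM, without overlap. The NEBNext library of CMT, a line in both sets, held 12.5 FPKM. With the NEBNext libraries alone Sox3 was lower in fPSCs than in EpiLCs by -1.11 (limma, adjusted p = 0.00675). With the others alone the difference was -0.40 (adjusted p = 0.281).

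Sox11, the SoxC member, was at 0.204 and 0.0792 FPKM in mESCs, 11.5 and 7.6 FPKM in EpiLCs and 44.6 and 28.9 FPKM in EpiSCs. In long-term fPSCs it ran from 15.9 over 22.1 to 35.2 FPKM. The groups climbed in the order mESCs, EpiLCs, fPSCs and EpiSCs, and only the last pair overlapped. From mESCs Sox11 rose by 3.18 ± 0.37 to EpiLCs (limma, adjusted p = 2.66e-05), by 4.35 ± 0.29 to fPSCs (adjusted p = 8.23e-08) and by 5.02 ± 0.37 to EpiSCs (adjusted p = 1.96e-07). The step from EpiLCs to fPSCs was 1.16 ± 0.29 (adjusted p = 0.0169), and it was lost when the EpiLC library 1 or 2 was left out (adjusted p = 0.0512 and 0.218). EpiSCs minus fPSCs was 0.67 (95% interval 0.03 to 1.31, adjusted p = 0.0923). Here the fPSC sets of either protocol, which also differ in the lines they hold, lay apart. The NEBNext library of CMT, a line in both sets, held 15.9 FPKM. Passages 10 to 30 held 25.3 to 35.2 FPKM and the NEBNext libraries 15.9 to 22.1 FPKM, without overlap; with the former alone the difference was 0.27 (adjusted p = 0.418) and with the latter alone 0.97 (adjusted p = 0.00533).

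Sox21 showed the reverse of Sox3 in the early step. It was at 8.23 and 19.7 FPKM in mESCs, 0.239 and 0.171 FPKM in EpiLCs and 8.75 and 4.76 FPKM in EpiSCs. The 7 fPSC libraries ran from 0.0176 over 0.213 to 1.08 FPKM. Thus mESCs and EpiSCs overlapped at a high level, EpiLCs and fPSCs at a low one, and there was a gap in between. Sox21 fell by 3.52 ± 0.39 on the log2 scale from mESCs to EpiLCs (limma, adjusted p = 1.91e-05) and by 3.45 ± 0.31 to fPSCs (adjusted p = 1.47e-06). It was higher in EpiSCs than in fPSCs by 2.57 ± 0.31 (adjusted p = 3.87e-05), whereas EpiSCs minus mESCs was -0.88 (95% interval -1.73 to -0.04, adjusted p = 0.0779) and passed without the mESC library 1 (-1.47, adjusted p = 0.0131) or without the EpiSC library 1 (-1.26, adjusted p = 0.0494). A non-coding gene, Gm4675, overlaps Sox21 on the opposite strand.

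Of the remaining transcription factors, Zfp521 was at 0.196 and 0.0674 FPKM in mESCs, 0.118 and 0.0942 FPKM in EpiLCs and 4.28 and 3.6 FPKM in EpiSCs. In long-term fPSCs it ran from 0.791 over 1.45 to 2.04 FPKM, above all mESC and EpiLC libraries and below all EpiSC libraries. Zfp521 rose from mESCs to fPSCs by 1.07 ± 0.17 (limma, adjusted p = 0.000249) and was higher in EpiSCs than in fPSCs by 1.06 ± 0.17 (adjusted p = 0.000478). Pou3f2, in contrast, reached 1 FPKM in a single library, the EpiSC library 1 at 1.14 FPKM, where EpiSC library 2 held 0.352 FPKM. In the 17 libraries outside EpiSCs it stayed between 0 and 0.279 FPKM.

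Shh was listed at 0 in 8 of 19 libraries. In EpiSCs it was at 19.5 and 9.17 FPKM, while no other library exceeded 0.276 FPKM (CMT at passage 11). Shh entered the test through the EpiSC libraries alone, so a difference was built into its entry. The fitted difference was 3.71 ± 0.19 on the log2 scale for EpiSCs minus fPSCs, and no p-value is given for it for that reason. By limma, fPSCs minus mESCs was 0.14 (95% interval -0.28 to 0.56, adjusted p = 0.592). The non-coding genes 9530036O11Rik and Gm17493 overlap Shh on the opposite strand, and the sources used here do not state whether counting used the strand.

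Among the structural genes, Nes was at 6.4 and 2.33 FPKM in mESCs, 5.06 and 3.41 FPKM in EpiLCs and 68.6 and 66.4 FPKM in EpiSCs. In long-term fPSCs it ran from 9.94 over 12.7 to 22.1 FPKM. The fPSCs lay between the overlapping mESCs and EpiLCs below and the EpiSCs above, without overlap. Nes was higher in fPSCs than in mESCs by 1.64 ± 0.32 (limma, adjusted p = 0.00103) and than in EpiLCs by 1.58 ± 0.32 (adjusted p = 0.00444, lost without the EpiLC library 2 at adjusted p = 0.0883), and higher in EpiSCs than in fPSCs by 2.15 ± 0.32 (adjusted p = 0.000208). The NEBNext libraries held 12.7 (CMT) to 22.1 FPKM and passages 10 to 30 held 9.94 to 12.7 FPKM, so that they met at 12.7 FPKM. Both sets alone were above mESCs, by 1.88 (limma, adjusted p = 0.0007) and 1.31 (adjusted p = 0.00487).

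Tubb3 had an order of its own. It was at 41.3 and 34.8 FPKM in mESCs, 19.7 and 33.5 FPKM in EpiLCs and 68.3 and 68.2 FPKM in EpiSCs. In long-term fPSCs it ran from 3.79 over 7.42 to 9.64 FPKM, and no 2 of the 4 groups overlapped. Tubb3 fell by 2.28 ± 0.26 on the log2 scale from mESCs to fPSCs (limma, adjusted p = 1.13e-05) and was lower in fPSCs than in EpiLCs by -1.74 ± 0.26 (adjusted p = 0.000472). EpiSCs exceeded fPSCs by 3.12 ± 0.26 (adjusted p = 1.08e-06), EpiLCs minus mESCs was -0.54 (95% interval -1.24 to 0.16, adjusted p = 0.233), and EpiSCs exceeded EpiLCs by 1.37 ± 0.32 (adjusted p = 0.00528, lost without the EpiLC library 1 at adjusted p = 0.0586). The rise from mESCs to EpiSCs, 0.83 ± 0.32 (adjusted p = 0.0476), was lost without any 1 of the 4 libraries involved (adjusted p from 0.0846 to 0.204). Ncam1 was under 1 FPKM in all but 1 library, the Epiblastoids of day 4 at 1.01 FPKM. The next values were 0.597 FPKM in mESC library 1, 0.453 FPKM in 46C and 0.341 and 0.349 FPKM in EpiSCs, and the other 6 long-term fPSC libraries stayed between 0.0152 and 0.0331 FPKM. A predicted gene, Gm20388, spans Tubb3 on the same strand, so its reads may be shared.

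**Figure D2:**
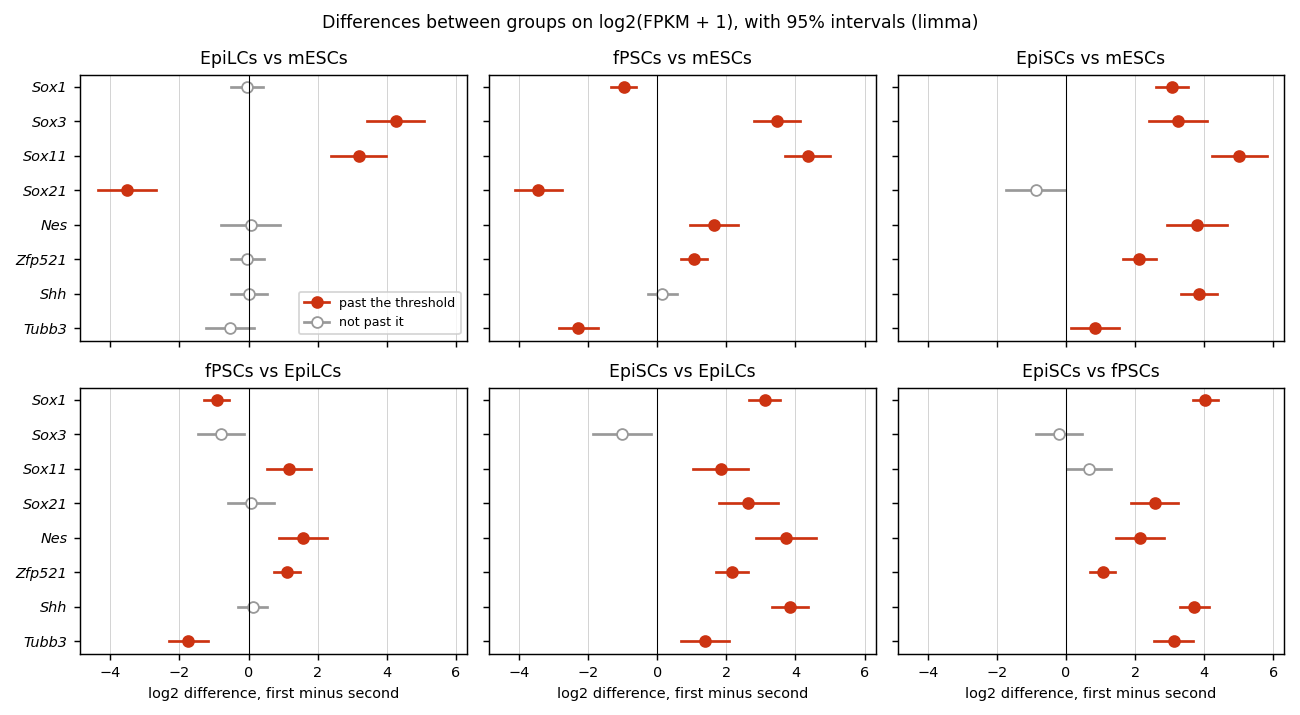
Differences between group means on log2(FPKM + 1) on the horizontal axis, first group minus second, with 95% intervals from limma for the 8 tested genes in 6 comparisons; filled red points passed the threshold. Sox3 and Sox11 passed in all 3 comparisons with mESCs and not between EpiSCs and fPSCs.

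Counted by comparison, 2 of the 8 tested genes were higher and 1 lower in EpiLCs than in mESCs, where 29.6% of all tested genes were called (12.2% higher and 17.4% lower). In fPSCs against mESCs 4 were higher and 3 lower, with 40.3% of all genes called (17.3% higher and 23.0% lower). In EpiSCs against mESCs 7 were higher and none lower (47.8% of all genes called, 23.1% higher and 24.7% lower), and in EpiSCs against EpiLCs it was again 7 and none (35.9% called, 20.4% higher and 15.5% lower). In fPSCs against EpiLCs 3 were higher and 2 lower (13.8% called, 5.66% higher and 8.15% lower), and in EpiSCs against fPSCs 6 were higher and none lower (32.3% called, 19% higher and 13.3% lower). Shh is 1 of the higher genes in each EpiSC comparison for the reason given above, so its call there adds no support. The comparisons share libraries, so their counts are not independent, and the fibroblast RNA of EpiSCs stands beside each of the EpiSC counts (10 of 10 tested fibroblast markers were higher than in mESCs and 9 of 10 higher than in fPSCs, or 8 and 7 without Col1a1 and Col3a1, which reached 1 FPKM in EpiSCs alone). The endoderm and streak sums given above stand beside the counts of fPSCs. In EpiSCs the streak and mesoderm markers summed to 68 and 107 FPKM and the endoderm markers to 14.7 and 12.1 FPKM. These stand beside the EpiSC counts as well, and the part of any of these sums in the counts was not tested.

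Other genes of the same roles were counted from lists. Of 17 Hedgehog pathway genes 14 were tested, and 8 were higher and none lower in EpiSCs than in fPSCs, with a median of 0.88 on the log2 scale against -0.02 over all genes, of which 19% were higher and 13.3% lower. Of these 8, Nkx6-1, Nkx2-2 and Boc entered the test through the EpiSC libraries alone, as Shh did, and without them 5 were higher. Nkx6-1, a ventral neural factor induced by Hedgehog signals, was at 7.69 and 4.46 FPKM in EpiSCs and at most 0.131 FPKM elsewhere, and Nkx2-2 at 4.05 and 1.61 FPKM against at most 0.505 FPKM. The receptor Ptch1 was higher by 2.09 (limma adjusted p = 0.000363). In fPSCs against mESCs 6 were higher and 4 lower (17.3% and 23.0% of all genes), led by Foxa2, which is also an endoderm marker (4.59, adjusted p = 0.0002), Gli3 (3.05, adjusted p = 0.000306) and Smo (2.45, adjusted p = 1.64e-06).

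Of 20 neural progenitor genes only 9 passed the filter. In EpiSCs against fPSCs 8 were higher and none lower (median 1.60 against -0.02 over all genes, of which 19% were higher and 13.3% lower), or 7 without Zeb2, which entered through the EpiSC libraries alone (5.19 and 4.07 FPKM). They were led by Gbx2, a factor of the anterior hindbrain (2.92, limma adjusted p = 3.57e-07), Zeb2 (2.12) and Irx3 (1.98, adjusted p = 0.00245). In fPSCs against mESCs 2 were higher and 3 lower (17.3% and 23.0% of all genes), with Zfp423, a relative of Zfp521, at 3.05 (adjusted p = 0.000297), Gbx2 at -2.20 (adjusted p = 3.1e-06) and Hesx1 at -2.05 (adjusted p = 0.0211). Pax6, the paired-box factor of the neuroectoderm, did not exceed 0.295 FPKM in any library.

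Of 20 neuronal genes 14 were tested, and in fPSCs against mESCs 6 were higher and 4 lower (17.3% and 23.0% of all genes), or 3 lower without Mapt, which reached 1 FPKM in mESCs alone. The tubulins of this list parted: Tubb4a rose by 4.44 (limma adjusted p = 1.41e-10), Tubb2b was at -2.89 (adjusted p = 2.48e-07), and the microtubule protein Mapt was at 9.03 and 5.3 FPKM in mESCs and at most 0.211 FPKM elsewhere. In EpiSCs against fPSCs 5 were higher and 1 lower (19% and 13.3% of all genes), with the growth-cone gene Gap43 at 3.38 (adjusted p = 1e-05), Tubb2a at 2.51 (adjusted p = 1.47e-07) and the neurofilament Nefl at -2.31 (adjusted p = 0.00231). Among the relatives of the Sox members, Sox4 rose from mESCs to fPSCs by 2.95 (adjusted p = 2.68e-07) and Sox2 was at -2.80 (adjusted p = 2.91e-07). Pou3f1, the class III POU factor next to Pou3f2 in family, went from 0.467 and 0.149 FPKM in mESCs to between 13.3 and 43.2 FPKM in long-term fPSCs, 4.48 higher (adjusted p = 4.65e-07), in which Pou3f2 did not exceed 0.0965 FPKM.

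Epiblastoids had 1 library a day, so no test was possible and a log2 ratio of at least 1 served to describe change. Sox3 was at 22.9 FPKM on day 2, 23.5 FPKM on day 3 and 3.64 FPKM on day 4, a log2 ratio of FPKM + 1 of -2.40 between the last 2 days. A ratio of -1 or lower was found for 8.22% of genes at 1 FPKM. Zfp521 went from 0.195 over 0.648 to 2.64 FPKM, with a log2 ratio of 1.14 from day 3 to day 4 (7.85% of genes had a ratio of 1 or higher). Sox21 (0.316, 0.101 and 1.14 FPKM) and Ncam1 (0.0244, 0.0134 and 1.01 FPKM) were also higher on day 4, by 0.96 and 0.98, just short of that ratio.

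From day 2 to day 3 none of the 10 genes reached a ratio of 1 (3.11% of all genes did upward and 2.47% downward); the largest was Nes at 0.54. Sox11 held 10.8, 9.79 and 14.7 FPKM, and Tubb3 held 9.72, 12.1 and 6.32 FPKM. The day 4 library is also the one with the highest streak and mesoderm sum, 630 FPKM over 7 markers against 52.1 FPKM on day 3, and with an endoderm sum of 466 FPKM against 0.834 FPKM; the part of these in the values of day 4 was not tested.

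Passage 1 fPSCs lay within the range of the long-term fPSCs for 7 of the 10 genes. Sox3 was above it at 32.7 FPKM (long-term 10.9 to 28.1) and so was Tubb3 at 21 FPKM (long-term 3.79 to 9.64), and Nes was below it at 8.7 FPKM (long-term 9.94 to 22.1). The library from E5.5 epiblast lay within it for 9 genes, with Sox1 above at 0.118 FPKM. The library from E6.5 epiblast lay within it for 7, with Sox11 at 50.5 FPKM, Sox1 at 0.24 FPKM and Pou3f2 at 0.163 FPKM above. The Sox11 value exceeded that of the higher EpiSC library (44.6 FPKM), while Sox1 of the same library stayed far under EpiSC levels.

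H3K4me3 marks promoters that are active or open and H3K27me3 is the mark of Polycomb repression, and promoters of developmental genes in pluripotent cells often carry both. Each mark was deposited as 1 file of RPKM in 100-bp bins, which leaves the replicate spread unknown, and no test was run. Marks were averaged over 10 kb around the start site and ranked among 22073 promoters. A promoter was said to hold both marks when H3K4me3 was above the median (1.13 RPKM) and H3K27me3 in the top 10% (above 1.51 RPKM), as 7.30% of all promoters did. Of the 10 genes 6 did: Sox1, Shh, Sox21, Pou3f2, Tubb3 and Ncam1.

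**Figure D3:**
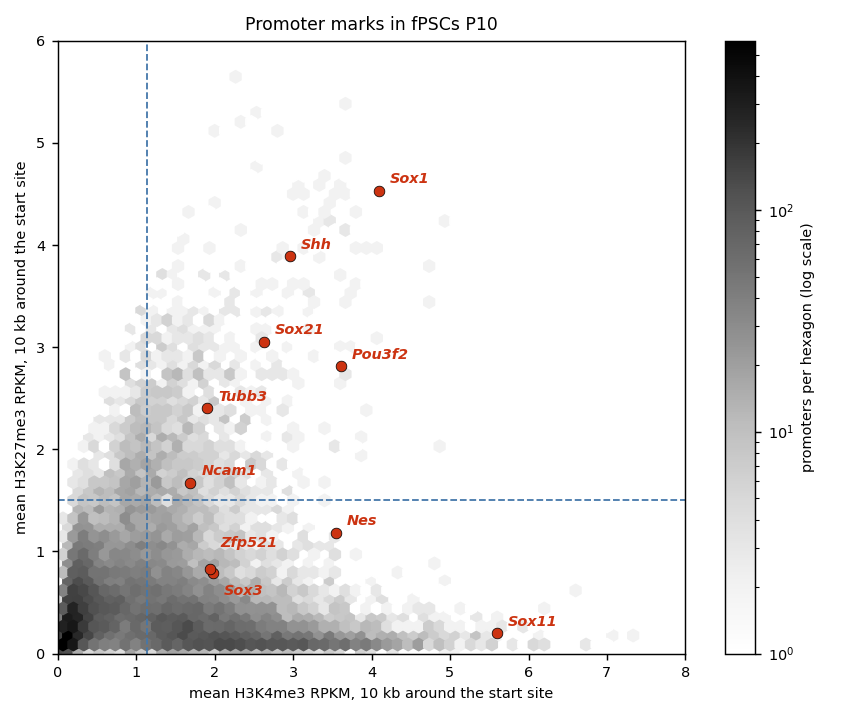
Mean H3K4me3 (horizontal axis, RPKM) against mean H3K27me3 (vertical axis, RPKM) over 10 kb around the start site in fPSCs of passage 10; grey hexagons count all 22073 promoters on a log scale, red points are the 10 genes, and dashed lines mark the median of H3K4me3 and the top 10% of H3K27me3. Sox1 has 4.53 RPKM of H3K27me3 and Sox11, with 5.6 RPKM of H3K4me3, has 0.199 RPKM.

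Averaged over 10 kb, the marks set the silent genes apart from Sox11. Sox1 held 4.09 RPKM of H3K4me3 and 4.53 RPKM of H3K27me3, the latter above 99.5% of promoters. Shh held 2.96 and 3.89 RPKM, Sox21 held 2.62 and 3.06 RPKM, and Pou3f2 held 3.61 and 2.82 RPKM. These 4 were at 0.0837, 0.142, 0.169 and 0.0121 FPKM in the RNA library of the same passage.

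Sox11 was the opposite case, with 5.6 RPKM of H3K4me3, above 99.6% of promoters, and 0.199 RPKM of H3K27me3, under the median of 0.379 RPKM, at 29.1 FPKM of RNA. Nes (3.54 and 1.18 RPKM, 9.94 FPKM), Sox3 (1.98 and 0.786 RPKM, 21.7 FPKM) and Zfp521 (1.94 and 0.831 RPKM, 0.791 FPKM) lay above both medians without reaching the top 10% of H3K27me3. Tubb3 was expressed at 7.56 FPKM and yet held 2.40 RPKM of H3K27me3, more than 95.9% of promoters, beside 1.90 RPKM of H3K4me3. Ncam1 (1.69 and 1.67 RPKM, 0.0248 FPKM) was above the median of H3K4me3 and just inside the limit for H3K27me3. With 1 kb to each side in place of 5 kb, 3 of the 10 genes met the limits. Within 500 bp of the start site H3K27me3 was 4.06 RPKM at Shh and 2.84 RPKM at Tubb3. There it was 1.09 RPKM at Sox21, 0.708 RPKM at Pou3f2, 0.45 RPKM at Ncam1 and 0.386 RPKM at Sox1. The finding of both marks therefore depends on the span used.

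The shape of the signal bears on this. In means of 500 bp, H3K4me3 at Sox1 reached 16.9 RPKM at 1.25 kb upstream and was 0.746 RPKM within 500 bp of the start site itself, where H3K27me3 was 0.386 RPKM. Pou3f2 (9.45 RPKM at 1.25 kb upstream, 1.24 RPKM at the start) and Sox11 (19.2 RPKM at 2.25 kb downstream, 3.48 RPKM at the start) dipped likewise. Tubb3 did not, with its highest value of 6.97 RPKM at 0.25 kb upstream and 6.34 RPKM at the start. The printed stretch of Sox1, with its 23 CG, lies in the dip, and the part of base composition in it was not tested.

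**Figure D4:**
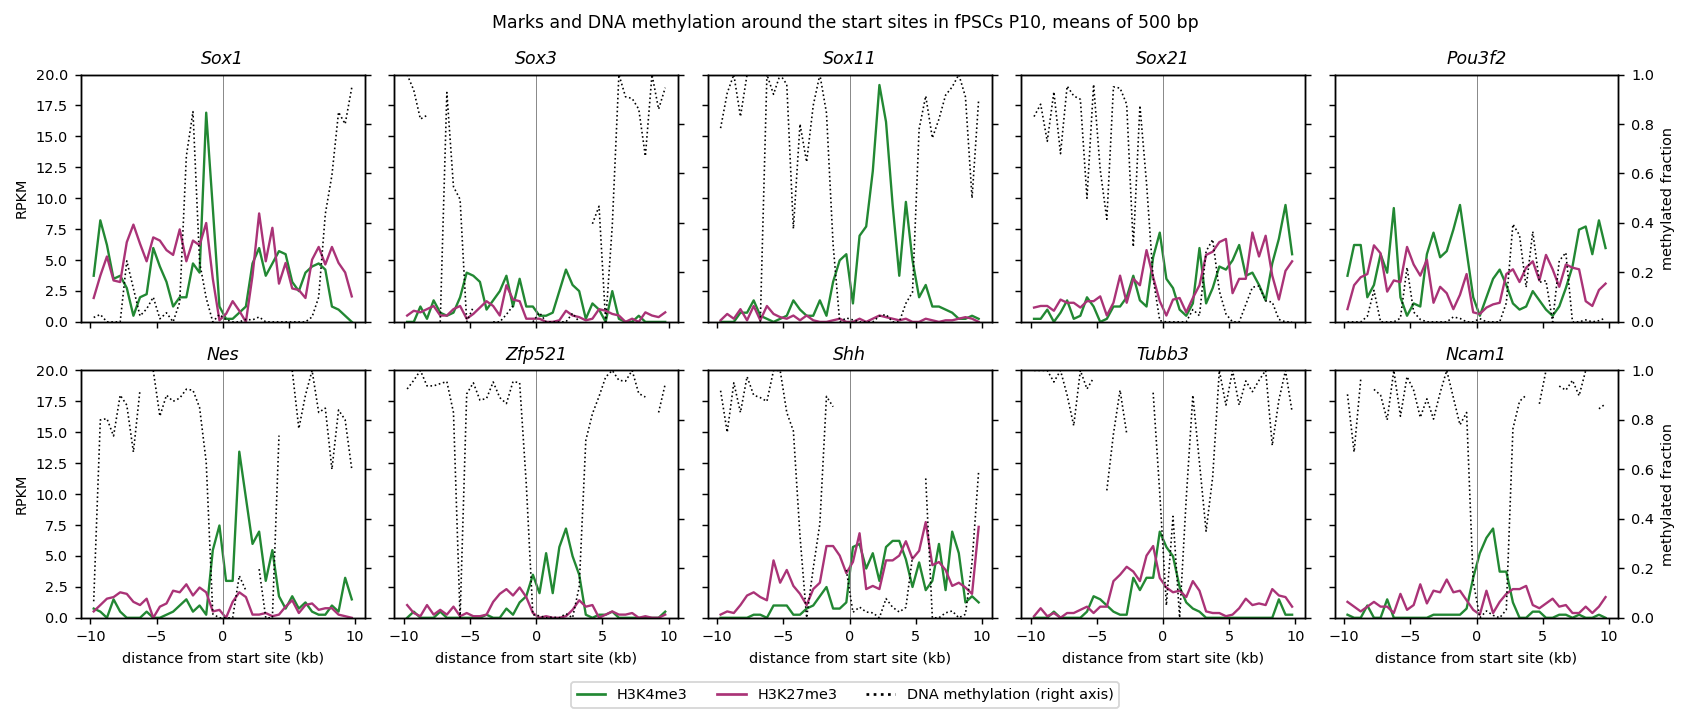
H3K4me3 (green) and H3K27me3 (purple) in RPKM on the left axis and methylated fraction (dotted, right axis) against the distance from the start site in the direction of transcription, in kb, as means of 500 bp, 1 panel per gene, fPSCs of passage 10. Sox1 has an H3K27me3 peak of 8.77 RPKM at 2.75 kb downstream, and Sox11 has an H3K4me3 peak of 19.2 RPKM with little H3K27me3.

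Methylation was deposited as 1 fraction per 100-bp window without coverage, so its precision is unknown. Within 1 kb of the start site the mean was under 0.2 for 9 of the 10 genes and 32.5% of all promoters, with a median of 0.358 over all promoters and 0.871 over all windows of the genome. Sox1, Sox3, Sox11, Pou3f2 and Nes were at 0.0024 to 0.0107, over 14 to 19 windows each. Sox21 (0.0529), Shh (0.0745), Ncam1 (0.102) and Zfp521 (0.118) followed, and Tubb3 stood apart at 0.409 over 14 windows.

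The stretch of windows at 0.2 or less around the start was 6000 bp long at Pou3f2 (chr4:22412601-22418600), 5700 bp at Sox11 and 4800 bp at Shh. It was 4500 bp at Sox1, 3700 bp at Sox3 and 3600 bp at Zfp521, and shortest at Tubb3 with 500 bp (chr8:125935201-125935700). Shh, with only 3 CG in the printed stretch and 55 CG within 1 kb to each side, fewer than the median promoter (61), was nonetheless low in methylation, while Tubb3 had 82 CG in that span. The most CG were at Sox11 with 206, more than 99.3% of promoters, and at Sox3 with 189.

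The same promoter rule gave both marks at 15 of 20 neural progenitor genes, 4 of 17 neuronal genes and 7 of 16 Hedgehog genes with a promoter in the annotation. Over all promoters the share was 7.30%. The median H3K27me3 was 3.31 RPKM in the progenitor list and 0.379 RPKM over all promoters, and 8 housekeeping genes had a mean of 0.243 RPKM.

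Single cells were counted in 2 tables, with 182 cells of 4 clones (the labels name 192 picked cells) and 44 to 46 cells per clone. The median per clone was 19061 to 33815 counts per cell. Cells ranged from 306 to 721992 counts and none was left out for low counts, so the shares below also depend on depth. Each gene is given with the cells that had at least 1 count, intervals cover counting error only, and all cells were fPSCs, so there is no second condition. Sox11 had counts in 74 of 92 cells of clones 1-2 (80.4%, Wilson 95% interval 71.2 to 87.3) and in 75 of 90 cells of clones 3-4 (83.3%, 74.3 to 89.6). Sox11 was thus found in most cells of every clone, from 75.0% in clone 4 to 91.3% in clone 3.

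Nes was found in 32.6% of cells (23.9 to 42.7) and 23.3% (15.8 to 33.1), and Zfp521 in 25.0% (17.3 to 34.7) and 21.1% (14 to 30.6). Sox3 was found in 16.3% (10.1 to 25.2) and 14.4% (8.6 to 23.2). Detection differed from gene to gene: Sox2 was found in 13% and 14.4% of the same cells and Otx2 in 66.3% and 66.7%. Pou5f1, the core pluripotency factor, was found in 5.43% and 13.3%, although it held 462 to 1025 FPKM in the long-term fPSC libraries. No single gene thus gives a scale of detection for the others.

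Tubb3 was found in 11 of 92 and 7 of 90 cells and Ncam1 in 5 and 5 cells, with 62 of the 80 Ncam1 counts of clones 3-4 in a single cell. Sox21 had 43 counts in 1 cell of clone 3 and no row in the table of clones 1-2. Sox1, Shh and Pou3f2 have no row in either table, so no share of cells is given for them. No cell type that should lack these genes is in the tables, so the share that free RNA would give is not known.

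Among all genes with a level in these libraries, those whose log2 levels were most like the genes of the set other than Sox1 over the 19 libraries were found by Pearson's r, as a description. The libraries share states, so r mainly restates the differences between groups. Shh was most like Megf10 and Nkx6-1 (r = 0.996 each), Sox11 was most like Tubb4a (0.978) and Sox21 was most like Dpp6 (0.966). Sox3 was most like Jph4 (0.964), Zfp521 was most like Zfp768 (0.958), Tubb3 was most like B3gnt9 (0.943), Nes was most like Map7d1 (0.941), Pou3f2 was most like Nkx2-2 (0.930) and Ncam1 was most like Bmp4 (0.901).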

How the data were processed

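The 10 genes, the lists and the tests were chosen with earlier results of these data known. Bulk RNA-seq was deposited by the authors as FPKM for 19 libraries (cutadapt 1.11, TopHat2 2.1.1 on Ensembl cDNA of mm9, Cufflinks 2.1.1). FPKM are scaled for length and library size, so they were analysed as log2(FPKM + 1) and no count test was run. The table has 23608 entries, of which 4 with repeated names were dropped. limma 3.58.1 in R 4.3.3 was fitted with the trend option over 13 libraries and 12513 genes, with Benjamini-Hochberg adjustment over all of them.

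H3K4me3 and H3K27me3 came from the authors as deposited RPKM values, 1 per 100-bp bin (Trim Galore, Bowtie2 2.2.2, mm9, duplicates removed), and bins without reads were taken as 0. Whether a file holds 1 replicate or both is not stated. Methylation was deposited by the authors as a fraction per 100-bp window, from BS-Seeker2. Positions came from the GENCODE annotation of NCBIM37, with Sox1 placed by an exact match of its RefSeq promoter (GRCm38.p6), and 6 of the 10 genes had such an entry, all matched. A low stretch joined windows at 0.2 or less over gaps of up to 3 windows.

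Raw counts of single cells were deposited by the authors (Smart-seq2, Drop-seq tools). Rows named as dates (21 and 18, 0.163% and 0.159% of counts) were left out, and 1 cell name occurs 2 times. Shares were given with Wilson 95% intervals in scipy 1.17.1. Replicate numbers were not taken as pairs.

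Genes named are the 10 members and, per list and comparison, up to 3 genes past the threshold with the largest change. Pax6, Pou3f1, Sox2, Pou5f1 and Otx2 and the single neural crest and neuron markers were also named, chosen after their values were seen. On simulated data with 200 changed genes among 12513, the limma step recovered these shares of changes of 1.5 on the log2 scale: 58% for EpiLCs against mESCs, 60% for EpiSCs against EpiLCs, 64.5% for EpiSCs against mESCs, 78.5% for EpiSCs against fPSCs, 81% for fPSCs against EpiLCs and 85% for fPSCs against mESCs, with 3 to 14 false calls. The changed genes were drawn from those with a mean log2(FPKM + 1) above 1, so the shares do not describe lower genes. The settings varied were the pseudocount (0.1), the filter (none), upper-quartile scaling, only the groups compared, the robust option, leaving out each library, 1 library protocol of fPSCs at a time, the replicate block and other promoter spans. The gene most like Sox1 is not reported here.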

Additional observations from a re-analysis of the deposited data

Results flagged for a closer look

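In the 7 long-term fPSC libraries, 46C stood apart from the other 6 for 3 of the 10 genes, by the gap to its nearest neighbour over the whole range (log2 scale, Dixon's 95% limit). Sox21 was highest there at 1.08 FPKM (gap 0.655 of the range), Ncam1 was highest at 0.453 FPKM (0.951) and Tubb3 was lowest at 3.79 FPKM (0.643). Chance flags about 1 in 20 groups, and 10 genes were looked at. The endoderm markers of 46C summed to 367 FPKM, against 9.53 to 95.6 FPKM in the other 6, and the streak and mesoderm markers to 167 FPKM against 28.3 to 69.2 FPKM; their part in these values was not tested.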

How the results depend on the processing

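Counts of called genes kept within 1.5 times of the reported ones under all alternatives except those given here. For fPSCs against EpiLCs, 5 genes were called and 3 without either EpiLC library. Both marks were found at 6 promoters with 5 kb to each side and at 3 with 1 kb, and methylation under 0.2 at 9 with 1 kb and at 4 with 5 kb. Leaving out 1 library at a time gave 3 called genes throughout for EpiLCs against mESCs, 5 to 7 for EpiSCs against mESCs, 7 throughout for fPSCs against mESCs, 6 to 7 for EpiSCs against EpiLCs, 3 to 6 for fPSCs against EpiLCs and 5 to 7 for EpiSCs against fPSCs; without an EpiSC library Shh no longer passed the filter. Differences near 0 changed sign: in EpiLCs against mESCs, Sox1 became 0.025 with upper-quartile scaling, 0.15 without EpiLC library 2 and 0.23 without mESC library 1, Nes became -0.17 without EpiLC library 1 and -0.52 without mESC library 2, and Zfp521 became 0.051 without mESC library 1 (the ranges without 1 library were -0.32 to 0.23, -0.52 to 0.63 and -0.11 to 0.051). In fPSCs against EpiLCs, Sox21 became -0.047 without 46C (range without 1 library -0.047 to 0.13) and -0.092 with the total RNA-seq libraries alone, and in EpiSCs against fPSCs Sox3 became 0.090 with the NEBNext libraries alone. The cause was not tested. Same-numbered libraries did not deviate together (r = 0.20, -0.20 and -0.13 for mESCs with EpiLCs, mESCs with EpiSCs and EpiLCs with EpiSCs), so their numbers were not taken as pairs. With the replicate block, fitted without fPSCs, 3, 7 and 8 genes were called for EpiLCs against mESCs, EpiSCs against mESCs and EpiSCs against EpiLCs; the 1 added call was Sox3 in the last (adjusted p = 0.0297 by limma). The same fit without the block, chosen after seeing the data, also called it (adjusted p = 0.0221), as did upper-quartile scaling (adjusted p = 0.0442) and the fit of only these groups (adjusted p = 0.00877). Depth is unknown, so no limit of detection can be given for genes listed at 0.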
